A study of Mus musculus with 10 samples.

Results

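The motile cilium genes were examined in lung tissue of mice given bleomycin, a drug that damages DNA and leaves the lung scarred. They were chosen by name among the protein-coding genes of the deposited count table. Taken were all symbols that begin with Cfap, Dnah, Dnai, Dnaaf, Rsph or Tekt, together with 7 genes listed singly, Foxj1, Bbof1, Eno4, Tppp3, Ccdc153, Dynlrb2 and Tmem212. This gave 72 of the 33347 genes in the table, 32 Cfap, 15 Dnah, 2 Dnai, 4 Dnaaf, 7 Rsph and 5 Tekt genes and the 7 listed singly. The list was drawn up with the measured difference between the groups known, and Bbof1 had the smallest p of all genes in that comparison, so differences between groups are given below as a description. No p for a difference between groups is given for any single member, and counts past a threshold stand beside the same share of all genes.

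All lungs came from wild-type mice given bleomycin, and every mouse also received bone marrow cells. In 5 samples the transferred cells had high aldehyde dehydrogenase activity (ALDHbr), and in 5 they had low activity (ALDHdim). The sources used here do not give age, sex, strain, dose or time after transfer, and no lung without bleomycin or without transferred cells was analysed here. The labels do not say that each sample came from a separate animal, so the spread between samples may in part be technical. In bulk tissue, fewer ciliated cells and less RNA per ciliated cell cannot be told apart.

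Motile cilia are beating projections of multiciliated airway cells, which sweep mucus out of the lung. Their core, the axoneme, is a ring of microtubule doublets around a central pair, bent by dynein motors and steadied by radial spokes and by tektin filaments inside the doublets. The transcription factor Foxj1 switches on the genes of the axoneme, together with factors of the RFX family that bind a promoter element called the X-box. In lung, Foxj1 and many axonemal genes mark ciliated cells of the airway, while some genes that carry a Cfap or Dnaaf name, such as Cfap20, Cfap36, Cfap97, Cfap410 and Dnaaf5, are also used in cells without a motile cilium.

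The label of ciliated airway cells was checked against genes not in the list. Of 26 further ciliated cell markers, 25 were in the table and 24 had enough counts to be tested, among them Sec14l3, a lipid-binding protein of ciliated airway cells, at a mean of 1236 CPM over the 10 libraries. CPM is a gene's count scaled to a common library size, taken over the tested genes after TMM scaling. The summed level of these markers ran from 1927 to 2783 CPM in the ALDHbr and from 2244 to 2840 CPM in the ALDHdim libraries. Sec14l3 and the tubulin gene Tuba1a, at 506 CPM, made up most of the mean sum of 2539 CPM, so the sum says little about the other markers. None of 7 basal cell markers passed the low-count filter. Among them Trp63, a transcription factor of basal cells, had 118 counts, with 33.6 CPM in ALDHbr 3, 24.99 CPM in ALDHbr 5 and 1.51 to 9.44 CPM in the other 8 libraries. Of 10 markers of ependyma, brain and testis, which also hold motile cilia or flagella, 6 were in the table and 1 was tested, Mbp at 32.9 CPM. Prm1, Tnp2 and Odf1 of sperm had 6, 1 and 1 counts in all.

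The libraries were shallow for genes of this abundance. Totals ran from 588063 counts in ALDHbr 2 to 2002947 in ALDHdim 2, so that 1 count was worth 1.96 CPM in the first and 0.504 CPM in the second. The 72 genes together took 0.166% of all counts. Counts were present in all 10 libraries for 60 of them, and 14 had under 50 counts over all libraries. Enough counts for a test were found for 39, namely 19 Cfap, 5 Dnah, 1 Dnai, 1 Dnaaf, 4 Rsph and 2 Tekt genes and the 7 listed singly. The other 33 had 1 to 105 counts in all, with a highest mean of 8.47 CPM, and include Dnaic1, Dnaaf1, Tekt2, Dnah11 and Dnah17. Dnah7a, Dnah7b and Dnah7c, and likewise Rsph3a and Rsph3b, are near copies of each other between which counting may split reads.

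Libraries were made from the 3' end of RNA, so a count was not divided by transcript length. Tppp3, a tubulin-binding protein, had a mean of 406 ± 164 CPM (SD, n = 10) and held 22.6% of all counts of the 72 genes. Ccdc153, a coiled-coil protein used as a marker of ciliated cells, had 120 CPM and Foxj1 116 CPM. Tmem212, another such marker, had 91.6 CPM, and Dynlrb2, a light chain of dynein, 74.8 CPM. Rsph1 of the radial spoke head had 48.7 CPM, and Cfap126, which helps to place basal bodies at the cell surface, 47.6 CPM. The tested dynein heavy chains, the motor subunits, lay between 9.31 CPM for Dnah3 and 32.3 CPM for Dnah5 of the outer arm. Tekt1 and Tekt4, tektins of the doublet, had 15.4 and 12.5 CPM, and Dnaic2, an intermediate chain of the outer dynein arm, had 14.3 CPM.

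**Figure D1:**
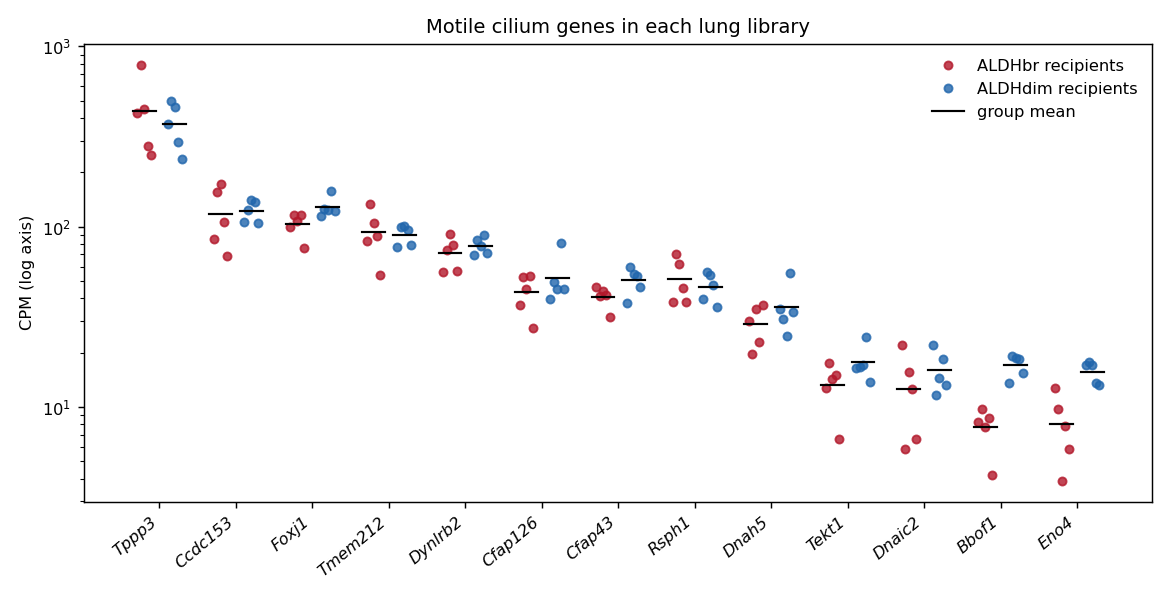
CPM on a log axis of 13 motile cilium genes in the 10 lung libraries, with a point for each library and a line for the group mean. Tppp3 spans 238 to 790 CPM, and for Bbof1 and Eno4 alone among these genes every ALDHbr library lies below every ALDHdim library.

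Promoters were examined because the X-box is the element known for genes of the axoneme. RefSeq promoter windows on GRCm38.p6, 250 bases before to 50 after a gene's start, were matched by symbol for 59 of the 72 genes (66 windows). The letters GTTGCC, an arm of the X-box, were found on either strand in 26 of 66 windows (39.4%), against 12.5% of all 32851 windows in the reference. The X-box was searched in a strict form, GTTGCC or a close variant followed within a few bases by an arm that begins with GG, as in GGCAAC. It was found in 2 of 66 windows (3.03%), against 0.676% of all windows. The carriers of this strict form were Cfap298, which holds it at 2 places, and Cfap58, and neither had enough counts to be tested. Looser forms were not searched. In Dynlrb2, and on the opposite strand in Dnaic2, GTTGCC is closely followed by AGCAAC, and such windows are not in the count. The letters TGTTTA, a forkhead core of the kind that Foxj1 binds, were found on either strand in 13 windows (19.7%), against 13.4% of all windows. In windows of the count table's other protein-coding genes, the shares were 12.4% (GTTGCC), 0.68% (strict X-box) and 10.9% (TGTTTA). All of these are matches of letters, and no binding was measured.

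The stretches shown are those of the 6 genes that carry GTTGCC before the start among the 25 members whose group differences are described singly. Cfap298 is added for the strict form of the X-box. Other members carry GTTGCC too. Each gives 60 bases of the gene's strand, 5′ to 3′, with GTTGCC or its reverse complement GGCAAC in capitals.
Ccdc153: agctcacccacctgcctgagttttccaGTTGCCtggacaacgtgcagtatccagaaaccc
Dynlrb2: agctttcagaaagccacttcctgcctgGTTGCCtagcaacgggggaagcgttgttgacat
Eno4: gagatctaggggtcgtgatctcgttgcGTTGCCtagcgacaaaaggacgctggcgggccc
Dnaic2: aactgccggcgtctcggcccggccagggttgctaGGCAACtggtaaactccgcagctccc
Tekt1: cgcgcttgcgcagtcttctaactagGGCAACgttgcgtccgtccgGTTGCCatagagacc
Cfap20: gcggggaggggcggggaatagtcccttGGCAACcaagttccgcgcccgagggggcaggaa
Cfap298: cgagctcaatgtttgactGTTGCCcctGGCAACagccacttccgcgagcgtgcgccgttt

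In GRCm38.p6 coordinates these lie at chr9:44240498-44240557 for Ccdc153 (plus strand), chr8:116504937-116504996 for Dynlrb2 (plus) and chr19:58943360-58943419 for Eno4 (plus). Those of the others are chr11:114727359-114727418 for Dnaic2 (plus), chr11:72361883-72361942 for Tekt1 (minus), chr8:95434931-95434990 for Cfap20 (minus) and chr16:90934877-90934936 for Cfap298 (minus). The match nearest the start began 15 bases before it in Tekt1, 26 in Dnaic2, 38 in Eno4, 51 in Dynlrb2, 60 in Cfap298, 94 in Cfap20 and 152 in Ccdc153. In Cfap298 the arms face each other as GTTGCC and GGCAAC across 3 bases. Cfap20, which is also used outside ciliated cells, carries the same letters.

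The summed level of the 72 genes differed little between the groups and more within them. It was 1628, 2136, 2008, 1518 and 1229 CPM in ALDHbr libraries 1 to 5 and 1636, 1890, 1824, 1868 and 1512 CPM in ALDHdim libraries 1 to 5. The means were 1704 ± 369 and 1746 ± 165 CPM (SD, n = 5 each), a ratio of 0.976, and the groups overlapped. ALDHbr 2 had the highest and ALDHbr 5 the lowest sum of all libraries. Without Tppp3 the ratio was 0.921. The broadly used genes of the list, 7 in the table, summed to 196 to 231 CPM in the ALDHbr and 193 to 232 CPM in the ALDHdim libraries, a narrower relative range than that of the whole list.

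**Figure D2:**
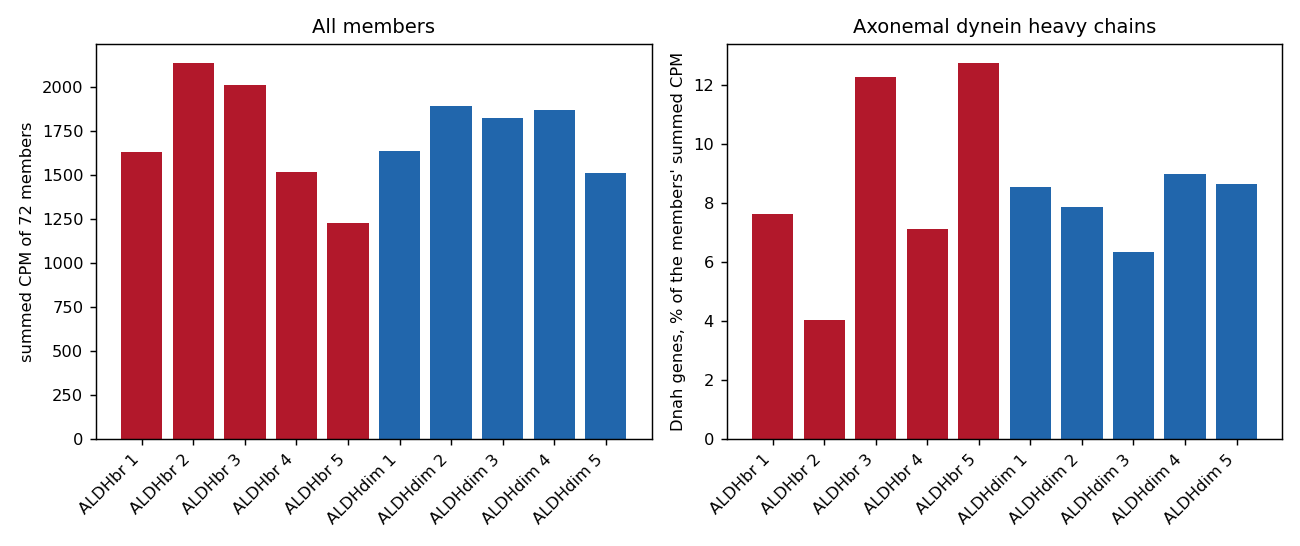
Left, summed CPM of the 72 genes in each library (ALDHbr red, ALDHdim blue). Right, the part of that sum held by the 15 Dnah genes, in percent, which is highest in ALDHbr 3 (12.2%) and ALDHbr 5 (12.7%).

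Members that followed a common pattern from library to library were found by centring each gene's log2 CPM on its group mean, which removes the difference between groups, and correlating it with the mean of the other tested members over the 10 libraries. Genes share library and depth here, and the values of r are a description. The r was over 0.5 for 15 of 39 tested members, against 5.99% of 10805 tested genes outside the list, whose median was -0.01. Tekt1 had the highest r (0.75), followed by Cfap206 and Foxj1 (0.73 each), Cfap43 (0.65), Dynlrb2 (0.64), and Ccdc153, Cfap126 and Bbof1 (0.63 each). Among these, library ALDHdim 4 was the highest for Foxj1 (158 CPM), Tekt1 (24.4 CPM) and Cfap126 (80.8 CPM), and ALDHbr 5 was the lowest for Foxj1 (75.8 CPM), Tekt1 (6.66 CPM), Cfap126 (27.5 CPM) and Ccdc153 (68.3 CPM).

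Members with r below 0 were mostly the broadly used ones. The r was below 0 for 4 of the 5 tested broadly used members, Dnaaf5 (-0.47), Cfap410 (-0.32), Cfap20 (-0.18) and Cfap97 (-0.06), and for 1 of the 34 others, Eno4 (-0.16). Dnaaf5, which acts in the cytoplasm to assemble dynein arms before they enter the cilium, had few counts, from 0 in ALDHbr 3 to 18 in ALDHdim 5. Of members with r over 0.5, 13 had a promoter window and 5 of these held GTTGCC, and of the others 16 had a window and 7 held it.

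Tppp3, the most abundant member, did not follow the other cilium genes closely (r = 0.25). It ran with the summed level of markers of club cells, the secretory cells of the airway. It was at 426, 790, 449, 279 and 251 CPM in ALDHbr libraries 1 to 5 and at 369, 499, 461, 296 and 238 CPM in ALDHdim libraries 1 to 5. The summed level of 16 club cell markers, led by Scgb1a1, was 32346, 70245, 37618, 24633 and 23771 CPM in the former and 39793, 53766, 42200, 28735 and 23804 CPM in the latter. In both groups library 2 was the highest and library 5 the lowest for both measures. The sum is weighted toward its most abundant genes, with Scgb1a1 at a mean of 23490 CPM of 37691 CPM over the 10 libraries. Scgb1a1, Cbr2 and Cyp2f2 were also highest in library 2 of both groups. Not every marker followed the sum, and Retnla was lowest in ALDHbr 2 (358 CPM) and ALDHdim 2 (208 CPM).

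Over the 10 libraries the correlation of Tppp3 with the club cell sum, both as log2 CPM, had r = 0.96 (permutation p = 3e-05, two-sided, 100000 permutations; adjusted over the 39 tested members, 0.00117) and Spearman's rho = 0.95 (permutation p = 0.00011, adjusted 0.00429). These p-values treat the 10 libraries as exchangeable. When libraries of the same number were moved together, in an exact permutation over the 120 orders of the 5 numbers, p was 0.00833 for r and for rho, the smallest this can give, and the adjusted p was 0.325. The relation then no longer passed 0.05 after adjustment. Without ALDHbr 2 and ALDHdim 2, the libraries farthest from the median of the club cell sum, r was 0.91, and it was 0.98 within either group. With libraries permuted freely, 1 of the 39 members had an adjusted p under 0.05 by either measure, and the next smallest unadjusted permutation p was 0.00736, for Rsph1 (r = 0.78). With numbers moved together, 0 of 39 did. Foxj1 had r = 0.21 with the club cell sum, while Tmem212 and Cfap161 had 0.74 each and Ccdc153 had 0.61. The r was above 0 for 24 of the 39 members, with a median of 0.18. Tppp3 also ran with the summed markers of alveolar type 2 cells (r = 0.93), so the relation was not limited to club cells. The relation was looked at after the values of Tppp3 had been seen, and whether its r differs from that of other members was not tested.

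**Figure D3:**
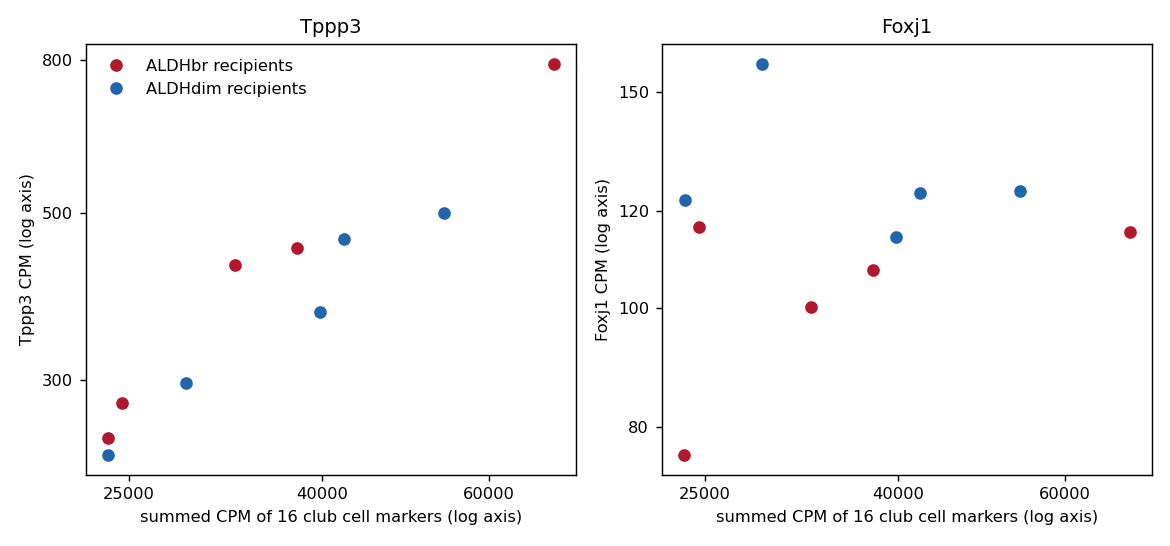
CPM of Tppp3 (left) and Foxj1 (right) against the summed CPM of 16 club cell markers in the 10 libraries, all on log axes. Tppp3 rises with the club cell sum in both groups (r = 0.96), and Foxj1 has r = 0.21. Tmem212, which is not shown, has r = 0.74.

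The part of the list's level held by the axonemal dynein heavy chains varied between libraries. The 15 Dnah genes held 7.62, 4.03, 12.2, 7.10 and 12.7% of the summed level of the list in ALDHbr libraries 1 to 5 and 8.55, 7.87, 6.34, 8.97 and 8.65% in ALDHdim libraries 1 to 5. These parts were highest in ALDHbr 3 and ALDHbr 5. The summed level of the Dnah genes was 124, 86.1, 246, 108 and 157 CPM in ALDHbr libraries 1 to 5 and 139.8, 149, 116, 168 and 131 CPM in ALDHdim libraries 1 to 5. ALDHbr 3 was the highest in level as well, while ALDHbr 5 lay below ALDHdim 4, and its part was high over the lowest sum of the whole list. ALDHbr 3 and ALDHbr 5 also detected the most genes of any kind, 24722 and 25377 against 17044 to 21209 in the other 8. They held 16.1% of all counts, 20.8% of the counts of Dnah genes and 13.3% of the counts of the other 57 members. The figure was 18.3% for the 5 tested Dnah genes and 26.4% for the 10 that were not tested. Single genes differed widely. It was highest for Dnah14 (13 of 19 counts), Dnah11 (21 of 48) and Dnah7c (26 of 75), while Dnah17 (0 of 8), Dnah10 (10.8%), Dnah1 (11.6%) and Dnah3 (11.7%) lay below the figure for all genes.

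Dnah9 of the outer arm was at 11.4, 3.91, 32.3, 12.6 and 14.99 CPM in ALDHbr libraries 1 to 5, and at 6.59 to 16.8 CPM in the ALDHdim libraries. Dnah6, a heavy chain of the inner arm, was at 12.0, 7.82, 25.9, 8.65 and 16.7 CPM in ALDHbr libraries 1 to 5 and at 10.4 to 17.2 CPM in the ALDHdim libraries. Cfap47, a cilium-associated protein encoded by a gene of 250.7 kb on the X chromosome, was at 5.07, 1.96, 32.3, 14.2 and 14.2 CPM and at 2.75 to 11.9 CPM. In each of these genes ALDHbr 3 was the highest library of all.

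Dnah genes are long, and the difference between ALDHbr libraries 3 and 5 and ALDHbr libraries 1, 2 and 4 was set beside the span of the gene from first to last base. Of the 6 tested members that span over 200 kb, 5 were higher in libraries 3 and 5, with a median difference in log2 CPM of 0.80 and a range from -0.23 to 1.69. Over all 539 tested genes of that span the median was 0.12. The 9 tested members of at most 20 kb had a median of -0.11, against -0.02 for all 4631 such genes. Across the 39 tested members the difference had r = 0.40 with log2 span, and across all 10844 tested genes r = 0.07. Libraries 3 and 5 were set apart after their Dnah levels had been seen, and Dnah5, Dnah6 and Dnah9 are among the 6 long members. The higher median of the long members is therefore in part built into the choice of libraries. Genes are not independent replicates, and the part that span or the number of detected genes has in the Dnah levels was not tested.

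**Figure D4:**
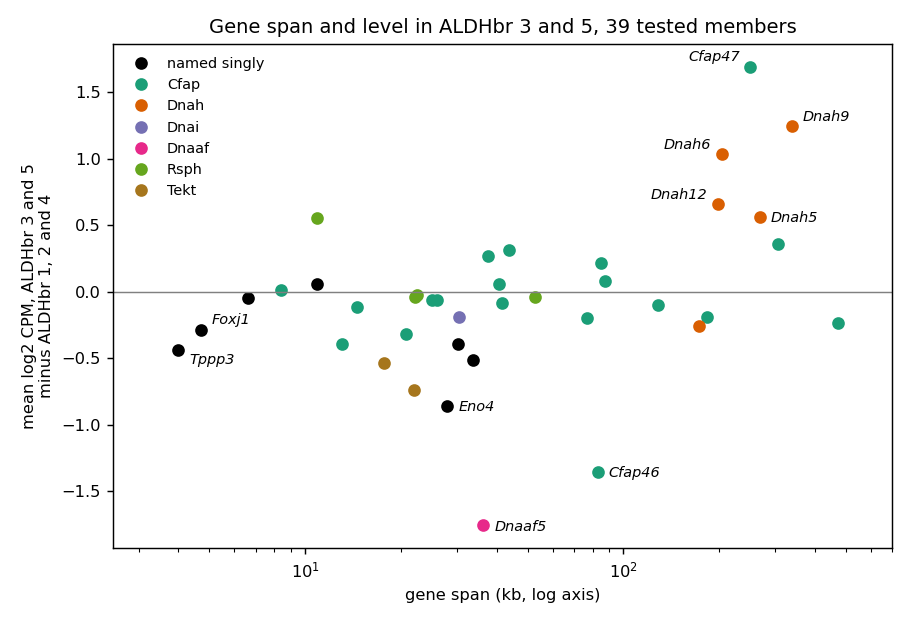
Difference in mean log2 CPM between ALDHbr libraries 3 and 5 and ALDHbr libraries 1, 2 and 4, against gene span in kb on a log axis, with a point for each of the 39 tested members. Cfap47, Dnah9, Dnah6, Dnah12 and Dnah5 lie above 0 at the long end, and Foxj1, Tppp3, Eno4, Cfap46 and Dnaaf5 below 0. Cfap299, the longest at 472.7 kb, also lies below 0 (-0.23).

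Between the transfer groups, the tested members had a median log2 fold change of -0.16, ALDHbr over ALDHdim, against 0.01 over all 10844 tested genes. The members' median was -0.06 without ALDHbr 5, -0.10 without ALDHdim 4 and -0.27 without ALDHbr 3. The estimate was lower in ALDHbr recipients for 27 members and higher for 12, where 48.1% of all tested genes were lower. By edgeR's quasi-likelihood test with Benjamini-Hochberg adjustment 0 of 39 members passed 0.05, against 0% of all genes tested. At an unadjusted p under 0.05 there were 3 of 39, against 3.71% of all genes. DESeq2 also called 0 members. The groups did not overlap, with ALDHbr lower, in 2 members, Bbof1 and Eno4, against 0.286% of tested genes, and with ALDHbr higher in 1, Cfap410, against 0.249%. The list was drawn up from this comparison in part, and these counts carry no weight of their own.

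Bbof1, a protein of the basal body that helps to align cilia, was low in every library. It had 13, 5, 6, 11 and 5 counts in ALDHbr libraries 1 to 5 and 19, 38, 22, 22 and 28 in ALDHdim libraries 1 to 5. This corresponds to 8.23, 9.78, 7.76, 8.65 and 4.17 CPM and to 13.5, 19.2, 18.7, 18.5 and 15.4 CPM, and the lowest ALDHdim library lay above the highest ALDHbr library. The log2 fold change was -1.17 (SE 0.26), and it lay between -1.24 and -0.96 under all alternatives run.

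Bbof1 lies on the plus strand of chromosome 12 from 84409071 to 84442887 (GRCm38). Its 3' end is inside Aldh6a1, an aldehyde dehydrogenase gene of the minus strand (84430717 to 84451004), and 1078 bases, 25.3% of the exonic bases of Bbof1, are exonic in both. No source used here says whether counting used strand. Without strand, reads from the shared bases cannot be assigned to either gene. The level of Aldh6a1 was 55.0 ± 19.1 CPM with ALDHbr cells and 50.7 ± 15.3 CPM with ALDHdim cells (SD, 5 libraries each), and its log2 fold change was 0.05 (SE 0.24). Of the 72 genes, 27 share at least 100 exonic bases with another gene.

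Eno4, an enolase known from the sperm flagellum, was at 12.7, 9.78, 3.88, 7.87 and 5.83 CPM in ALDHbr libraries 1 to 5 and at 17.0, 17.7, 17.0, 13.5 and 13.2 CPM in ALDHdim libraries 1 to 5. The groups did not overlap, but ALDHbr 1 (12.7 CPM) lay close below ALDHdim 5 (13.2 CPM). The log2 fold change was -0.92 (SE 0.28), and -0.60 without ALDHbr 3 and ALDHbr 5.

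Foxj1, the transcription factor above the axonemal genes, was at 100.1, 115, 107, 116 and 75.8 CPM in ALDHbr libraries 1 to 5 and at 114, 125, 124, 158 and 123 CPM in ALDHdim libraries 1 to 5. The groups overlapped, since ALDHbr libraries 2 and 4 lay just above ALDHdim 1. The log2 fold change was -0.33 (SE 0.14), and -0.22 without ALDHbr 3 and ALDHbr 5. The other genes listed singly differed less. The log2 fold change was -0.16 (SE 0.15) for Dynlrb2, -0.09 (SE 0.22) for Ccdc153, 0.00 (SE 0.19) for Tmem212 and 0.22 (SE 0.30) for Tppp3.

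**Figure D5:**
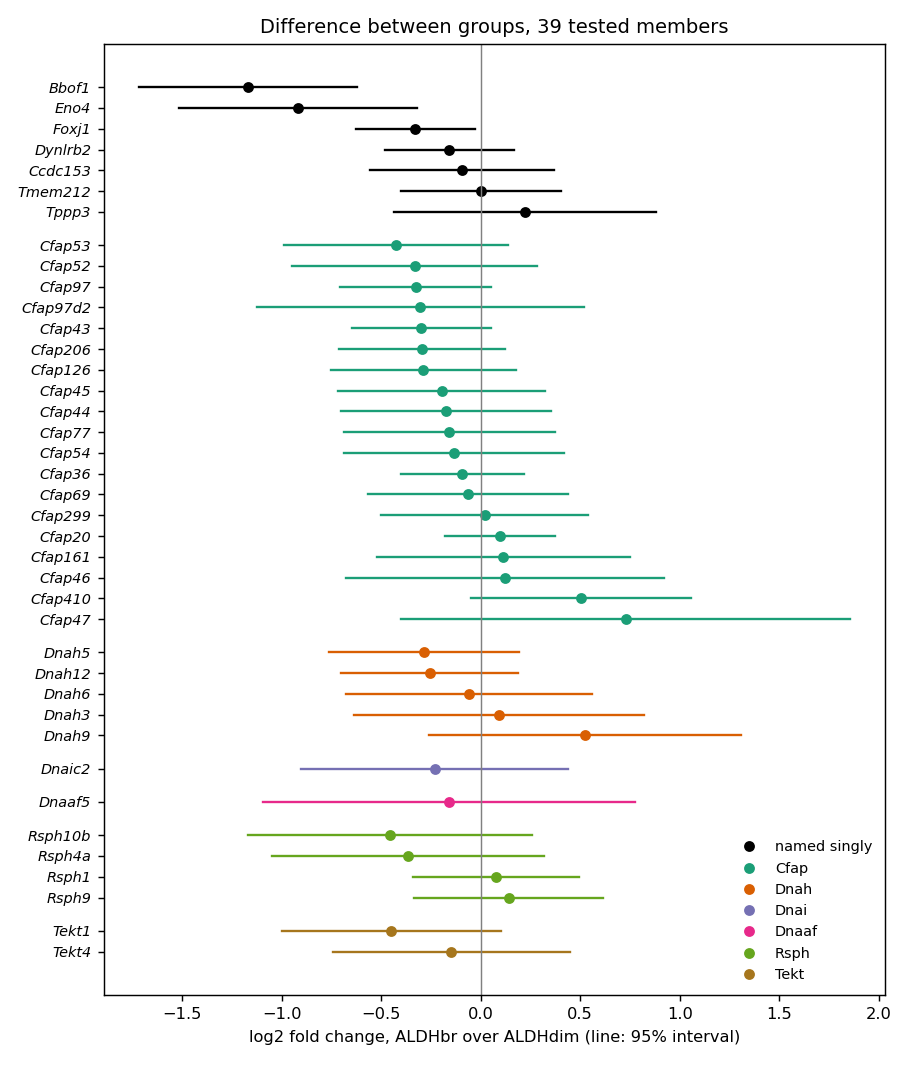
Log2 fold change, ALDHbr over ALDHdim, of the 39 tested members by family, with a point for the estimate and a line for its 95% interval. Most points lie between -0.5 and 0.5, and Bbof1 (-1.17) and Eno4 (-0.92) lie lowest.

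Among the motor subunits, Dnah5 had 28.7 ± 7.44 CPM with ALDHbr cells against 35.9 ± 11.7 CPM with ALDHdim cells (SD, 5 libraries each) and differed by -0.28 (SE 0.23), while Dnah12 of the inner arm differed by -0.26 (SE 0.21). Dnah6 differed by -0.06 (SE 0.29) and Dnah9 by 0.52 (SE 0.37). Without ALDHbr 3 and ALDHbr 5 the differences were -0.51 for Dnah5, -0.52 for Dnah12, -0.56 for Dnah6 and -0.01 for Dnah9, each lower than with these libraries. ALDHbr 3 and ALDHbr 5 had the highest summed Dnah levels of the ALDHbr libraries, so this fall follows from the choice of libraries and is not a separate result. Dnaic2 differed by -0.23 (SE 0.32), or -0.04 without these libraries, and Dnaaf5 by -0.16 (SE 0.44), or 0.23 without them.

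The radial spoke genes did not share a direction. Rsph1 differed by 0.08 (SE 0.20) and Rsph9 by 0.14 (SE 0.22), while Rsph4a, also of the spoke head, differed by -0.37 (SE 0.32) and Rsph10b by -0.46 (SE 0.34). In each of these 4 genes the groups overlapped. The tektins Tekt1 (-0.45, SE 0.26) and Tekt4 (-0.15, SE 0.28) had lower estimates in ALDHbr recipients, but for Tekt4 it was 0.15 without ALDHbr 3 and ALDHbr 5.

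Of the 19 tested Cfap genes, 13 had lower and 6 higher estimates, with a median of -0.16. Cfap53, a protein of the axoneme needed for left-right patterning, was lowest at -0.42 (SE 0.27) and Cfap126 differed by -0.29 (SE 0.22). The highest was Cfap47 at 0.73 (SE 0.52), or -0.03 without ALDHbr 3, its highest library, and ALDHbr 5. Cfap410, one of the broadly used members, was at 12.0, 13.7, 11.6, 12.6 and 14.2 CPM in ALDHbr libraries 1 to 5 and at 9.94, 5.04, 10.2, 10.1 and 10.4 CPM in ALDHdim libraries 1 to 5. All 5 ALDHbr libraries lay above all 5 ALDHdim libraries, and the log2 fold change was 0.50 (SE 0.26). Cfap20 (0.10, SE 0.13) and Cfap36 (-0.09, SE 0.15), the most abundant broadly used members, were near 0.

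The 95% interval of 30 of the 39 tested members held no difference larger than 2-fold. That share for all tested genes is not given here. The intervals are not adjusted for the number of genes, and the list was drawn up with the difference between groups known. On the log2 scale the interval extended 0.55 to each side in the median member, against 0.43 in the median of all tested genes.

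Cilium genes outside the list were grouped by role. None of the genes in these groups passed 0.05 after adjustment, in either direction. Of 27 genes of the central pair, nexin link and dynein docking complex, 20 were tested, 19 with lower and 1 with higher estimates (median -0.20). Of all tested genes 48.1% were lower, and the genes of a group are not independent replicates. The summed level of the 27 genes overlapped, with 254 to 410 CPM in the ALDHbr and 332 to 432 CPM in the ALDHdim libraries. Spag6l of the central pair had 13.7 ± 3.61 CPM with ALDHbr cells against 19.5 ± 1.55 CPM with ALDHdim cells (SD, 5 libraries each) and differed by -0.44 (SE 0.21). It was named after its values were seen, as the 1 gene of these groups whose libraries did not overlap. Among all tested genes 0.286% were lower in ALDHbr without overlap. Lrrc23 (-0.27, SE 0.21), Nme5 (-0.12, SE 0.21) and Spef2 (-0.15, SE 0.28) were the most abundant. In the same group 9 of 20 genes had r over 0.5 with the mean of the tested members, Nme5 with 0.85.

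Of 24 tested ciliated cell markers 15 had lower and 9 higher estimates (median -0.12), with Sec14l3 at -0.22 (SE 0.16), the tubulin gene Tubb4b at -0.13 (SE 0.13) and Tuba1a at 0.02 (SE 0.12). All 22 genes of intraflagellar transport, which carries building material along the axoneme of motile and non-motile cilia alike, were tested, 15 with lower and 7 with higher estimates (median -0.09). Ift20 differed by -0.04 (SE 0.13), Ift43 by 0.09 (SE 0.20) and Traf3ip1 by -0.16 (SE 0.16). The 4 tested genes of dynein assembly outside the Dnaaf name all had lower estimates (median -0.27), among them Pih1d2 (-0.26, SE 0.33), Lrrc6 (-0.27, SE 0.30) and Zmynd10 (-0.06, SE 0.32).

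Of 10 transcription factors of multiciliated cells 6 were tested, 5 with lower and 1 with higher estimates (median -0.34). E2f4 differed by -0.46 (SE 0.20) and E2f5 by -0.07 (SE 0.22). Myb, which also acts in blood progenitors and dividing cells, differed by 0.58 (SE 0.25).

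Other epithelial cells were measured alongside. The 16 club cell markers had a median log2 fold change of -0.21, with 11 lower and 5 higher, and a summed level of 37723 ± 19057 CPM with ALDHbr cells against 37660 ± 11792 CPM with ALDHdim cells (SD, 5 libraries each), so that the median and the sum differ in sign. The 10 alveolar type 2 markers had a median of 0.04, the 8 alveolar type 1 markers 0.07 and the 6 genes of epithelial junctions and keratins -0.13, with all 6 lower. The most abundant of the last were Cdh1 (-0.29, SE 0.16), Krt18 (-0.36, SE 0.19) and Krt8 (-0.13, SE 0.17). The part of epithelial content in the levels of the cilium genes was not tested.

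The genes outside the list whose group-centred pattern over the 10 libraries was most like the mean of the tested members were Fam81b (r = 0.94), Bphl (0.94), Zfp444 (0.93), Mau2 (0.92), Krtcap3 (0.92), Slc44a4 (0.91), Drc3 (0.91), Tbx1 (0.91), Gopc (0.91) and Kcnj15 (0.90). They were taken as the 10 highest of 10805 genes over 10 libraries, and the values of r are a description. Drc3, a subunit of the nexin-dynein regulatory complex, is an axonemal protein, while Mau2 loads cohesin onto chromosomes and Bphl is a hydrolase. Drc3 had 23.3 ± 7.99 CPM with ALDHbr cells against 25.3 ± 8.73 CPM with ALDHdim cells (SD, 5 libraries each) and differed by -0.11 (SE 0.27).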

How the data were processed

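Analysis started from the authors' deposited counts, whole and not normalized, of each gene in 10 lung libraries. Per the labels' protocols the libraries were made by BRB-seq, a 3' method with a sample barcode and a molecular identifier. Alignment tools named in the submitters' processing notes are HISAT2 2.2.1 and, for trimming and counting, Trim Galore 0.6.7, UMI-tools and featureCounts 2.0.1, along with DESeq2 and the builds GRCm38 and GRCh38. The sources used here do not say whether reads were collapsed by molecular identifier, nor give the strand setting or annotation. All 33347 gene identifiers were found in GENCODE mouse release 21 on GRCm38.

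Genes were kept by filterByExpr (minimum count 10), which left 10844 genes with 97.3% of counts, and scaled by TMM. Groups were compared by glmQLFTest after a robust glmQLFit (edgeR 4.0.16, R 4.3.3), with a threshold of 0.05 after Benjamini-Hochberg adjustment. The code was tested on simulated data. Levels are CPM over the tested genes' counts. Log2 CPM used a prior count of 2. The standard error is the log2 fold change divided by the root of F. Alternatives were no filter, DESeq2 size factors, DESeq2 1.42.0, a replicate block and leaving out libraries.

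Members and lists were chosen with earlier results of these data known. Named are the 7 genes listed singly, the 3 most abundant tested genes per family and list, the 5 largest differences in each direction, and the 10 genes of most similar pattern. Other genes in the text, such as Trp63, Spag6l, Cfap206 and the Dnah genes of few counts, fall outside this rule and were named after their values were seen. Plots used matplotlib 3.10.9.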

Additional observations from a re-analysis of the deposited data

Results flagged for a closer look

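Among 66 sets of 5 values (25 named members and 8 summed levels, in either group), 6 held a value set far apart from the other 4 relative to the spread of all 5. Chance alone marks about 1 set in 20, or 3.3 here. Foxj1, Cfap126 and the summed Cfap genes were high in ALDHdim 4. Foxj1 was at 158.3 CPM there, while the rest of its group lay at 114 to 125 CPM. Cfap126 was at 80.83 CPM against 39.8 to 49.4 CPM, and the summed Cfap genes were at 655.1 CPM against 544 to 561 CPM. Cfap20 was at 70.41 CPM in ALDHbr 2 and at 57.5 to 60.6 CPM in the rest of that group. Cfap410 was at 5.045 CPM in ALDHdim 2 against 9.94 to 10.4 CPM, and Rsph4a at 4.720 CPM in ALDHbr 4 against 11.7 to 14.2 CPM, both from few counts.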

How the results depend on the processing

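Without the low-count filter 185 of 33347 genes passed the threshold, among them 1 member, Bbof1. The main test and every other alternative run gave 0 genes and 0 members. The list was drawn up with this comparison known, and Bbof1 had the smallest p in it. Its passing without the filter therefore carries no weight of its own. The members' median log2 fold change, -0.16, was between -0.27 (without ALDHbr 3) and -0.06 (without ALDHbr 5) when a library was left out and between -0.21 and -0.15 under the other alternatives, and the ratio of summed levels between 0.914 and 1.044 when a library was left out. Of 25 named members, 16 kept the sign of their difference under all alternatives run and 9 did not. With a replicate block (the number in the labels added to the model), 0 genes and 0 members passed and the median was -0.18. Same-numbered libraries correlated between 0.06 and 0.37 in their deviations from the group means, positive in all 5 pairs but not over 0.1 in every one, and the labels name no shared batch, so the numbers were not taken as pairs. As a hint from the data, 7 of 10 libraries were most like the library of their own number in the other group. Leaving out Tppp3, or ALDHbr 3 and 5, from the summed level was chosen after seeing the data (ratios 0.921 and 1.008). The adjusted p of the correlation of Tppp3 with the club cell sum went from 0.00117 to 0.325 when same-numbered libraries were permuted together, also chosen after seeing the data. The 33 members below the filter were not compared in the main test.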
